A study of Mus musculus with 6 samples.

Results

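Matrix metalloproteinase (MMP), ADAM, ADAMTS and ADAMTS-like genes, with the tissue inhibitors of metalloproteinases (TIMPs), were described in the mesonephros of male mouse embryos at embryonic day 16.5. Members were all genes of the deposited table whose symbol is Mmp, Timp, Adam, Adamts or Adamtsl followed by a digit, which gave 53 of 14366 genes. They comprised 13 MMPs, 3 TIMPs, 14 ADAMs, 18 ADAMTS and 5 ADAMTS-like genes. GENCODE release 21 for mouse names 83 protein-coding genes that match the rule, and those outside the table were not analysed here. There were 3 control libraries of genotype Osr2Cre+;Gata2-flox/+ and 3 libraries of genotype Osr2Cre+;Gata2-flox/flox, labelled Gata2cKO. Both groups thus carried the Osr2-Cre recombinase and at least 1 floxed allele of Gata2, a zinc finger transcription factor gene, and the controls kept 1 unfloxed allele. Osr2-Cre is known to act in mesenchyme, whereas the dissected mesonephros, with its tubule region, also holds the epithelium of the Wolffian duct, which forms the epididymis. Nothing in the labels tells separate animals or litters apart, so every p-value rests on the spread among these libraries, which may be technical.

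MMPs are zinc-dependent proteases that cut collagens, laminins and other matrix proteins, either secreted or held at the cell membrane. They are made as inactive precursors and are held back by TIMPs, which bind the catalytic site. ADAMs are membrane proteins, many of which shed the outer part of growth factors, receptors and adhesion molecules, while ADAMTS proteases are secreted and cut proteoglycans, procollagens and microfibril proteins. ADAMTS-like proteins share the matrix-binding part of ADAMTS proteins and have no protease domain. In developing ducts and tubules these families are known to take part in matrix turnover around growing and folding epithelium.

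Levels are given as TPM, which is scaled for gene length and library total, and read depth is unknown. Gata2 itself lay at 384, 464 and 546 TPM in the controls and at 431, 530 and 416 TPM in the Gata2cKO libraries, so the groups overlapped. A TPM for the whole gene cannot tell whether the floxed exons are gone, and each direction below rests on the labels. Markers of the labelled tissue were found: all 7 listed mesenchymal markers and all 10 listed duct markers were in the table. Of the mesenchymal markers Tcf21, Osr2 and Nr2f2 were lower and Col3a1 higher by limma. Control and Gata2cKO means were 766 and 449 TPM for Tcf21, 261 and 127 TPM for Osr2 and 350 and 252 TPM for Nr2f2. The sum of the 7 was 6295 to 7908 TPM in controls and 6826 to 8845 TPM in Gata2cKO libraries. That sum was led by Col1a1, with means of 4045 and 4458 TPM, and Col3a1, with 1606 and 2107 TPM. Control replicate 1 stood apart in several respects, with 21.9% of its TPM in mitochondrially encoded genes against 13.2 to 16.3% in the other libraries. It also had the highest summed erythroid markers, at 18277 TPM against 6863 to 13827 TPM. Likewise it had the highest summed skeletal muscle markers, at 13.0 TPM against 2.42 to 4.33 TPM. Among the 43 members that could be tested it held the lowest value of the 6 libraries for 14 and the highest for 7, and over all tested genes for 30.4% and 21.9%. Gata2cKO replicate 2 held the highest value for 19 members and for 27.9% of all tested genes. Summed markers of some other cells also moved with the groups, and the called counts that follow compare with 7.47% of all tested genes. Summed markers of macrophages (334 to 406 TPM in controls and 401 to 452 TPM in Gata2cKO libraries) overlapped. Those of erythroid, skeletal muscle, neural and testis cells overlapped too. Endothelial markers summed to 165 to 223 TPM in controls and 240 to 306 TPM in Gata2cKO libraries, with 3 of 7 tested markers higher and 0 lower. Mesothelial markers summed to 338 to 440 and 552 to 645 TPM, with 3 of 5 higher, and mast cell markers to 95.9 to 134 and 264 to 279 TPM, with 3 of 5 higher. On the mast cell list Kit went the other way without overlap, at 2.66 to 3.02 and 2.12 to 2.49 TPM (limma adjusted p = 0.119). Smooth muscle markers summed to 818 to 910 and 598 to 641 TPM, with 3 of 5 lower. The part of these markers in the results below was not tested, and in bulk tissue fewer cells of a type and less RNA per cell cannot be told apart.

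The stretch before the transcription start was read from RefSeq promoter sequences (GRCm38.p6) for 32 of the 53 members. The 250 bases before the start are shown for 3 members past the threshold, Mmp7, Mmp28 and Timp2, and for Timp3, whose values were lower, as these are the called members with a sequence in the table and the inhibitor that went the other way. Capitals mark matches to the GATA motif (AGATAA with its variant AGATAG and likewise TGATAA with its variant TGATAG) or the AP-1 motif (TGANTCA), each searched on both strands, and the 2 motifs share no overlapping match here.
Mmp7: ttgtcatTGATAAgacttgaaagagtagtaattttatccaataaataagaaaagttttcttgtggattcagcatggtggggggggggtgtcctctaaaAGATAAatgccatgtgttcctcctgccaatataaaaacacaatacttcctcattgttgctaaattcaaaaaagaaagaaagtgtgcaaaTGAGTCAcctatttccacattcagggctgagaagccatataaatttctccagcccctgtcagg
Mmp28: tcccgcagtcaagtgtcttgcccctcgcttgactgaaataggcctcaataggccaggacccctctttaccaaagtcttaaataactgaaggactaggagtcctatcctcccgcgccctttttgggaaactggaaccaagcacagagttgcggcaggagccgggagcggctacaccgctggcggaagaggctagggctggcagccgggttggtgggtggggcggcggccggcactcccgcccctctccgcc
Timp2: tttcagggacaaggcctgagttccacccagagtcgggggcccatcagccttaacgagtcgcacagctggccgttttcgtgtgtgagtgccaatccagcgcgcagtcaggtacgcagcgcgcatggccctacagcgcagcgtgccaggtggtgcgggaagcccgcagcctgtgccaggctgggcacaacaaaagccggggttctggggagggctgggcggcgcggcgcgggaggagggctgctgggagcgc
Timp3: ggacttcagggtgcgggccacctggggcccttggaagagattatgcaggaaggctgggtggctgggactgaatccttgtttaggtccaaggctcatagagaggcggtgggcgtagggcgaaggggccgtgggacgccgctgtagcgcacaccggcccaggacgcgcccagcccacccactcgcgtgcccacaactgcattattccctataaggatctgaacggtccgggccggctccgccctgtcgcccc
The stretches lie at chr9:7691840-7692089 on the plus strand, chr11:83463041-83463290 on the minus strand, chr11:118355412-118355661 on the minus strand and chr10:86300162-86300411 on the plus strand, in that order. The Mmp7 stretch held 2 GATA matches, which began 243 and 152 bases before the start, and 1 AP-1 match, which began 63 bases before it. Mmp7 has another, more downstream start among these promoter sequences, and the 250 bases before that start held neither motif. The other 3 stretches held neither motif. GC content was 38% for Mmp7, with 0 CG pairs, and 62% for Mmp28, 68% for Timp2 and 65.6% for Timp3, against a median of 59.6% over the promoters of genes in the table. A GATA match was found for 4 of 32 members (12.5%) and for 20.2% of the table's genes with a promoter sequence, and an AP-1 match for 2 of 32 (6.25%) and 5.44%. A match is a run of letters and not a measured binding site.

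**Figure D1:**
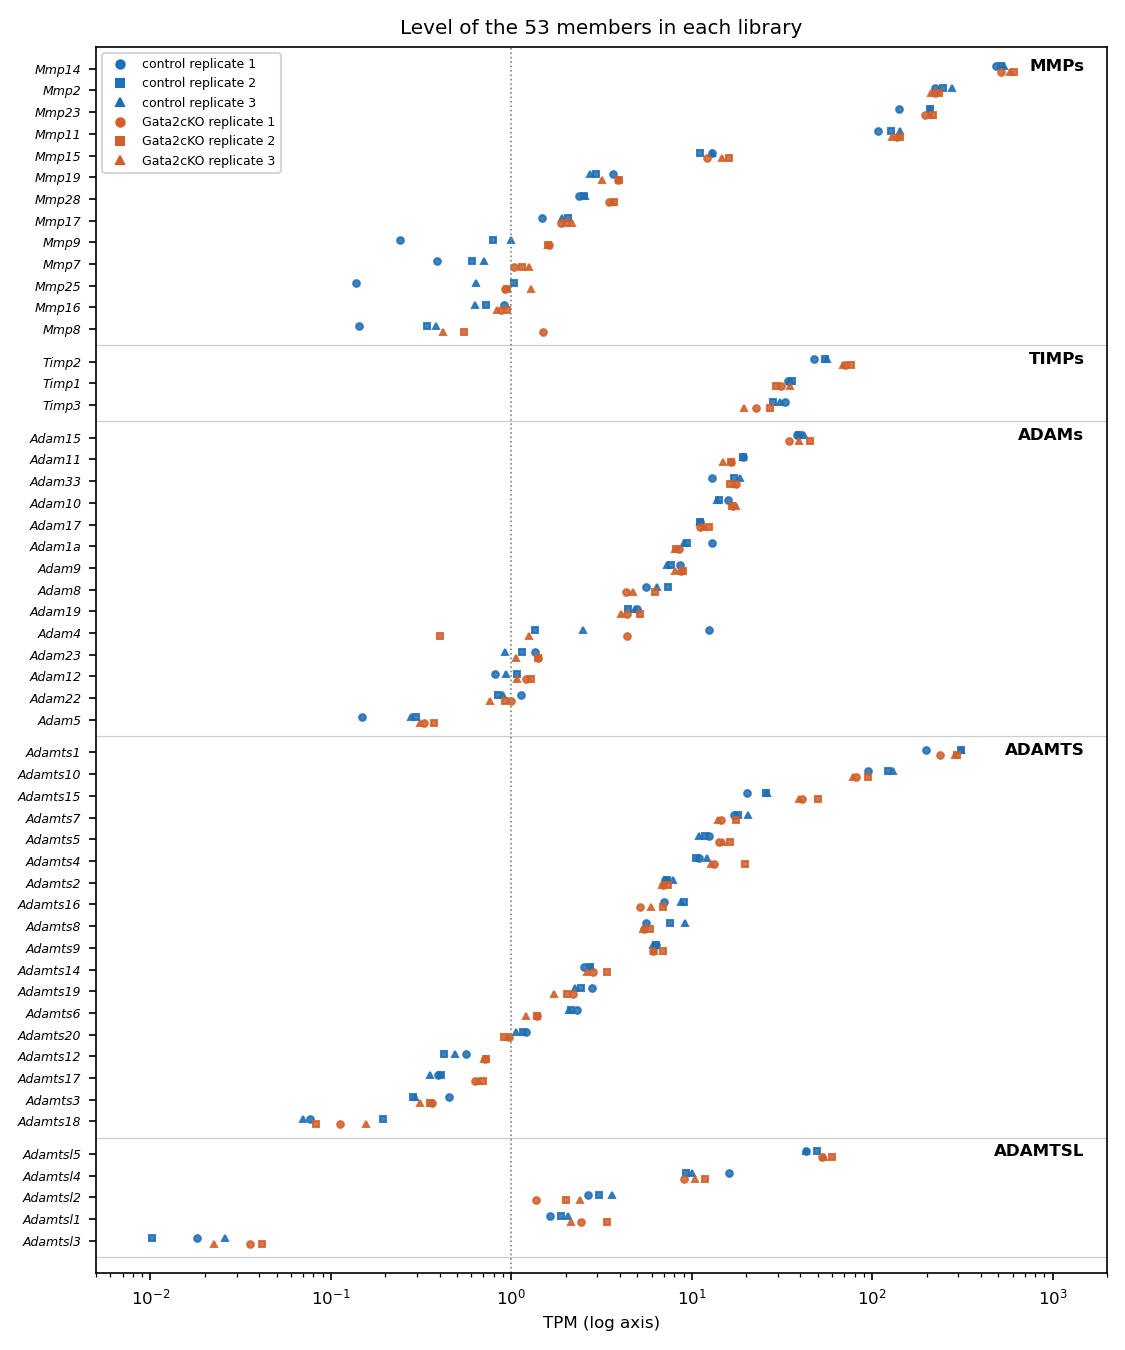
TPM (log axis) of each of the 53 members in each of the 6 libraries, ordered by mean level within each family, with controls in blue, Gata2cKO in orange and a dotted line at 1 TPM. Mmp14 was the highest member in every library, and 11 members had a mean under 1 TPM.

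The family was dominated by a few abundant genes. Of the 53 members, 6 had a mean of 100 TPM or more over the 6 libraries, in the order Mmp14, Adamts1, Mmp2, Mmp23, Mmp11 and Adamts10. A further 15 lay from 10 to under 100 TPM, 21 from 1 to under 10 TPM and 11 under 1 TPM. The plot of levels by library shows that differences between members far exceeded those between groups. Summed over the 53 members the level was 1909 ± 193 TPM in controls and 1978 ± 129 TPM in Gata2cKO (SD, n = 3 each), and the groups overlapped.

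Differences between the groups were modest and went both ways. Genes with at least 1 TPM in at least 3 libraries were tested, 43 of the members and 12300 genes in all, with limma on log2(TPM + 1) and Benjamini-Hochberg adjustment over all of them. With the adjusted p below 0.05 as threshold, Adamts15, Mmp28 and Timp2 rose in Gata2cKO and Adamts6 fell. Mmp7 also passed as higher, but it met the filter on low values only through the Gata2cKO group and had to differ to be tested. With Mmp7 the calls came to 4 higher and 1 lower, or 11.6% of those tested. Among the members at 1 TPM or more in all 6 libraries, 3 were called higher and 1 lower. The same rule called 7.47% of all tested genes, 5.73% as higher and 1.74% as lower. Of the members, 19 (44.2%) had groups that did not overlap, 11 higher and 8 lower, against 33.9% of all tested genes. The 19 include Mmp7 and Mmp9, which were higher, and Adamts20, which was lower. Each of these met the filter through 1 group only, which fixed its lack of overlap. The median log2 fold change was 0.08 over the tested members and 0.05 over all tested genes. Median-of-ratios scaling, which shifts the median of all genes from 0.05 to about 0, called 3 members higher and 3 lower, and over all genes put 55.8% of calls on the higher side against 76.7%. Leaving out 1 library gave 0 to 6 members called higher and 0 to 4 called lower, with the most without control replicate 1 and none without Gata2cKO replicate 1 or without Gata2cKO replicate 2. At an unadjusted p under 0.05, 9 and 8 members were then higher and 5 and 8 lower. With all libraries kept, 39.5% of the tested members, Mmp7 and Mmp9 included, and 27.4% of all tested genes had such a p. Adamts15 kept its call in 4 of the 6 removals and the other 4 members kept theirs in 1, that without control replicate 1.

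**Figure D2:**
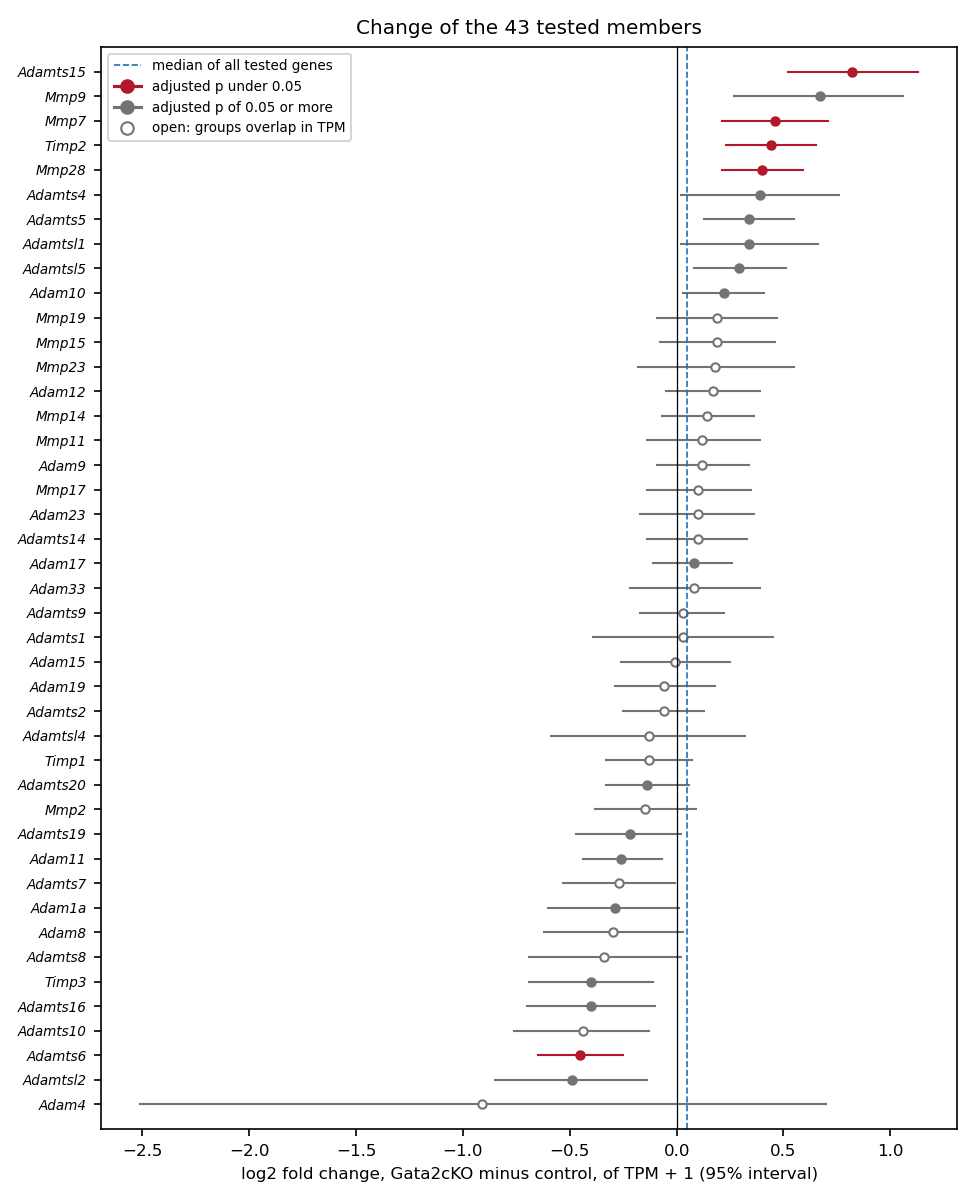
Log2 fold change (Gata2cKO minus control, on the TPM + 1 scale) of the 43 tested members, with the 95% interval from the limma fit. Red marks the 5 members past the threshold, from Adamts15 at 0.82 to Adamts6 at -0.45, and open points mark members whose groups overlap.

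Among the inhibitors Timp2 rose, and Timp3 and Timp1 did not pass the test. Timp2 encodes a secreted inhibitor that also helps membrane-bound Mmp14 to activate pro-Mmp2. It lies on chromosome 11 from 118301069 to 118355740. Timp2 was at 47.4, 54.8 and 55.9 TPM in controls and at 70.3, 76.5 and 68.7 TPM in Gata2cKO libraries. All 3 Gata2cKO values lay above all controls. The mean was 52.7 ± 4.60 TPM in controls and 71.8 ± 4.08 TPM in Gata2cKO (SD, n = 3 per group), a 1.36-fold rise with a log2 fold change of 0.44 (SE 0.09; limma adjusted p = 0.0329), and the highest adjusted p over the removals was 0.117, without Gata2cKO replicate 1. Timp3, whose product binds to the matrix and also inhibits ADAM17 and ADAMTS proteases, went the other way. Timp3 was at 33.0, 28.3 and 30.9 TPM in controls and at 22.8, 27.2 and 19.5 TPM in Gata2cKO libraries. The groups did not overlap, although control replicate 2 and Gata2cKO replicate 2 lay close. On the log2 scale the change was -0.40 with an SE of 0.13 (adjusted p = 0.0916 by limma), which did not pass, whereas the authors' deposited table gives -0.47 with an adjusted p of 0.00104 and median-of-ratios scaling gave an adjusted p of 0.0495. Timp3 lies on chromosome 10 from 86300372 to 86349506, and 1733 of its 8144 exonic bases overlap exons of Syn3 on the opposite strand. Whether counting used the strand is not stated in the labels or notes, so that part of its level is uncertain. Timp1, on the X chromosome, was at 34.0, 35.7 and 34.9 TPM in controls and at 31.3, 29.2 and 34.8 TPM in Gata2cKO libraries, with overlapping groups (log2 fold change -0.13, 95% interval -0.33 to 0.07, limma adjusted p = 0.365).

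As the 3 inhibitors moved unequally, their mix differed between the groups. Timp2 made up 41.4, 46.1 and 45.9% of the summed TIMP level in controls and 56.5, 57.6 and 55.8% in Gata2cKO libraries. Timp3 made up 28.9, 23.8 and 25.4% and then 18.3, 20.4 and 15.9%. Neither share overlapped between groups. The sum of the 3 was 118 ± 3.58 TPM in controls and 127 ± 5.25 TPM in Gata2cKO, and the summed MMP level was 9.25 ± 0.647 and 9.19 ± 0.286 times the summed TIMP level (SD, n = 3 each), with groups that overlapped. These shares and ratios are descriptions from values already given and were not tested.

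**Figure D3:**
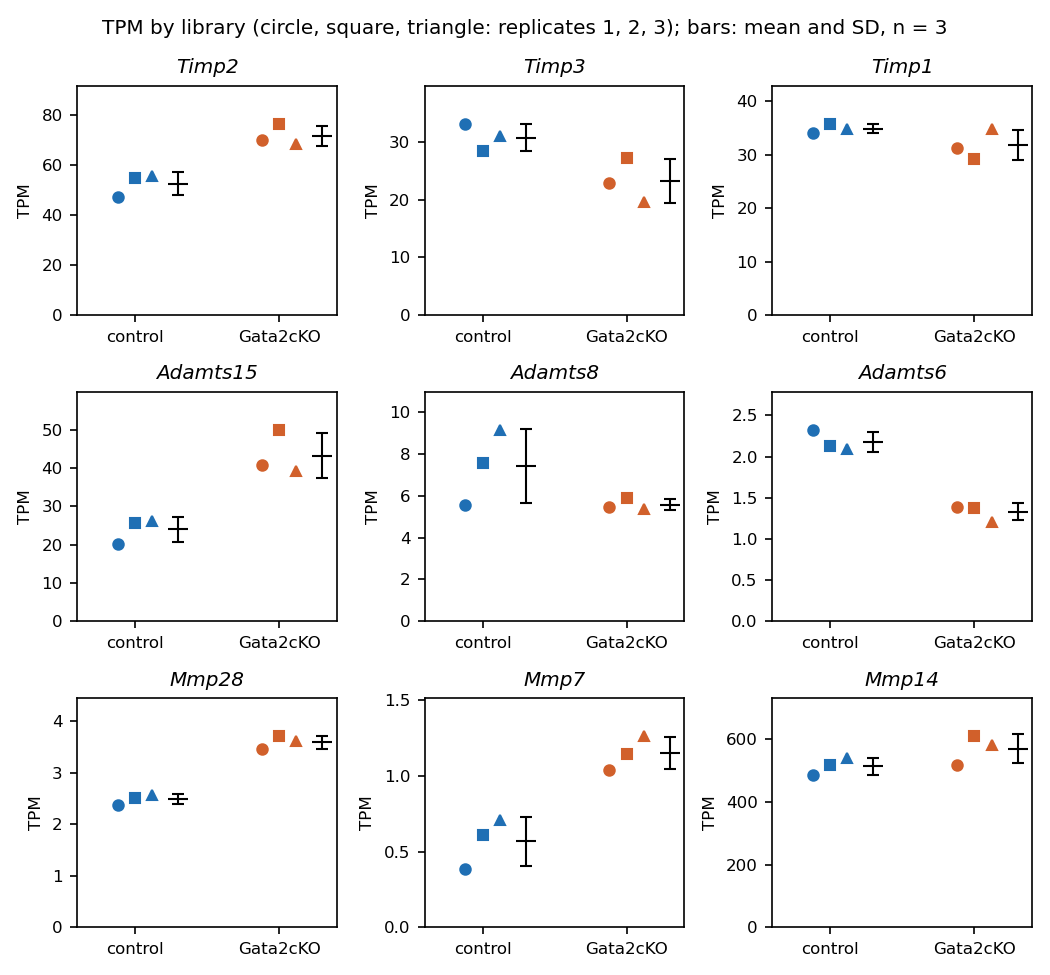
TPM in each library for 9 members, with the mean and SD of each group (n = 3). Timp2, Adamts15, Mmp28 and Mmp7 lie higher and Adamts6 and Timp3 lower in all 3 Gata2cKO libraries than in all controls, while Mmp14, Timp1 and Adamts8 overlap.

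Among the 10 tested MMPs, Mmp28 rose and none fell. Mmp7 passed the threshold too, and Mmp7 and Mmp9 met the filter only through the Gata2cKO group. By limma, Mmp28 and these 2 were higher at an unadjusted p under 0.05 and none was lower, against 27.4% of all tested genes. The authors' deposited table calls 0 of the 13. A positive log2 fold change was found for 9 of the 10 and for 7321 of all 12300 tested genes. The filter fixed the sign of Mmp7 and Mmp9. Among the 8 MMPs at 1 TPM or more in all libraries 7 had a positive value, with a median of 0.16. Over all 10 the MMP median was 0.19, and the value was positive for 9 of 10 after median-of-ratios scaling, with a median of 0.13, and for 8 of 10 without control replicate 1. Mmp28, which encodes epilysin, a secreted protease known from epithelia and testis, was at 2.38, 2.52 and 2.57 TPM in controls and at 3.46, 3.71 and 3.62 TPM in Gata2cKO libraries. The groups were well separated at this low level, with means of 2.49 ± 0.0997 and 3.59 ± 0.129 TPM (SD, n = 3 per group), a 1.44-fold rise. On the log2 scale the change was 0.40 with an SE of 0.08 (adjusted p = 0.0318 by limma). Without mitochondrial genes Mmp28 did not pass (limma adjusted p = 0.0576). The authors' deposited table gives Mmp28 a log2 fold change of 0.47 and an adjusted p of 0.118. Mmp28 lies on chromosome 11 from 83440768 to 83463071, and 466 of its 3874 exonic bases overlap 1700020L24Rik on the opposite strand. Mmp7, which encodes matrilysin, a small protease secreted by glandular epithelium, was at 0.388, 0.607 and 0.707 TPM in controls and at 1.04, 1.14 and 1.26 TPM in Gata2cKO libraries. All 3 controls lay under 1 TPM. On the log2 scale the difference was 0.46 with an SE of 0.11 (adjusted p = 0.0454 by limma; kept only without control replicate 1), while the authors' deposited table gives an adjusted p of 0.372. With a pseudocount of 0.1 in place of 1 the log2 fold change was 0.93 and the limma adjusted p 0.0510, and it was 0.0537 after median-of-ratios scaling and 0.0518 without mitochondrial genes.

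Mmp7 and Mmp28 are known from epithelia, and the summed duct epithelial markers lay at 738 to 842 TPM in controls and 888 to 941 TPM in Gata2cKO libraries. Of 9 tested duct markers 1, Epcam, was higher and none was lower, or 11.1% called against 7.47% of all tested genes. None of the 10 was at 0 in all libraries. The sum was led by Krt18 and Krt8, with means of 321 and 231 TPM in controls and 349 and 267 TPM in Gata2cKO. Of the 9, 5 lay higher without overlap, while Pax2, Pax8, Lhx1 and Krt18 overlapped. Over all tested genes 33.9% had groups that did not overlap, in either direction. Lhx1 alone had a negative log2 fold change (-0.43, limma adjusted p = 0.212). The part of these markers in the 2 results was not tested.

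The gelatinases differed widely in level. Mmp2, which cuts type IV collagen and denatured collagen, was at 222, 246 and 277 TPM in controls and at 224, 234 and 213 TPM in Gata2cKO libraries. The groups overlapped (log2 fold change -0.15, 95% interval -0.38 to 0.09, limma adjusted p = 0.384). Mmp9, the gelatinase of leukocytes and osteoclasts, was at 0.241, 0.792 and 0.990 TPM in controls and at 1.62, 1.60 and 1.60 TPM in Gata2cKO libraries. All 3 controls lay under 1 TPM, so Mmp9 too met the filter only through Gata2cKO. The groups did not overlap, but the test was not passed (log2 fold change 0.67, SE 0.17, limma adjusted p = 0.0561; 0.0214 without control replicate 1). Mmp8, the neutrophil collagenase, was under 1 TPM in all libraries but Gata2cKO replicate 1, at 0.144, 0.339 and 0.383 TPM in controls and 1.50, 0.549 and 0.417 TPM in Gata2cKO libraries, and was not tested. Of 8 listed neutrophil markers 6 were in the table, with none at 0 in all libraries. They summed to 36.6, 16.9 and 10.8 TPM in control replicates 1, 2 and 3 and to 170, 59.3 and 61.4 TPM in Gata2cKO replicates 1, 2 and 3. Gata2cKO replicate 1 was highest in Mmp8 and in this sum, led there by S100a8 at 98.0 TPM and S100a9 at 40.1 TPM. Of the markers in the table Retnlg alone was highest in Gata2cKO replicate 2, at 7.16 TPM. Mmp9 was level across the Gata2cKO libraries, and both Mmp8 and Mmp9 were lowest in control replicate 1. The part of neutrophil RNA in these values was not tested.

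The abundant MMPs did not pass the test. Mmp14, the membrane-type protease that activates pro-Mmp2 and cuts fibrillar collagen, was at 485, 518 and 539 TPM in controls and at 517, 609 and 580 TPM in Gata2cKO libraries. It was the most abundant member and made up 47.0 ± 2.33% of the summed MMP level in controls and 48.8 ± 1.65% in Gata2cKO (SD, n = 3 each). Its log2 fold change was 0.14 (95% interval -0.07 to 0.36, limma adjusted p = 0.358). Mmp23, a membrane-anchored protease that is released on cleavage, was at 140 TPM in control replicate 1 and at 197 to 218 TPM in the other 5 libraries. Its log2 fold change of 0.18 (limma adjusted p = 0.489) became -0.01 without control replicate 1. Mmp11, stromelysin 3 of stromal cells, ranged from 107 to 143 TPM in controls and from 128 to 143 TPM in Gata2cKO libraries. Mmp15, another membrane-type member, was at 11.1 to 13.0 TPM in controls and at 12.2 to 16.0 TPM in Gata2cKO libraries, with a log2 fold change of 0.19 (limma adjusted p = 0.337). Mmp19 and Mmp17 lay between 1.48 and 3.96 TPM in all libraries.

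None of the 12 tested ADAMs passed by limma. At an unadjusted p under 0.05, Adam10 was higher and Adam11 lower, and the authors' deposited table calls Adam11 alone. The main sheddases were well expressed. Adam10, which cuts Notch receptors and cadherins, was at 15.8, 14.2 and 13.8 TPM in controls and at 16.9, 16.8 and 17.6 TPM in Gata2cKO libraries. The groups did not overlap but lay close (log2 fold change 0.22, 95% interval 0.03 to 0.41, limma adjusted p = 0.142). Adam17, which sheds tumour necrosis factor and ligands of the EGF receptor, was at 11.1 TPM in each control and at 11.1, 12.4 and 11.7 TPM in Gata2cKO libraries (limma adjusted p = 0.571). Adam15 was the most abundant ADAM, at 38.4, 39.1 and 41.6 TPM in controls and at 34.5, 45.4 and 39.3 TPM in Gata2cKO libraries. Its groups overlapped (log2 fold change -0.01, 95% interval -0.26 to 0.25). Adam9, Adam19 and Adam8 lay between 4.06 and 8.99 TPM in all libraries, and Adam33 between 12.9 and 18.4 TPM. Adam12, a protease of mesenchyme and muscle, lay near 1 TPM.

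Of the ADAMs known to lack a catalytic site only Adam11 had groups that did not overlap. Adam11, known from neurons as an adhesion protein, was at 19.1, 19.1 and 19.3 TPM in controls and at 16.5, 16.4 and 14.8 TPM in Gata2cKO libraries. The controls were tightly grouped and all lay above the Gata2cKO values (log2 fold change -0.26, SE 0.08; limma adjusted p = 0.0864, or 0.0447 after median-of-ratios scaling). For Adam11 the authors' deposited table has -0.33 with an adjusted p of 0.0336. Adam22 and Adam23, relatives from the same branch, lay between 0.765 and 1.41 TPM in all libraries.

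Among the ADAMs known from testis, Adam4 varied most between libraries of 1 group, an observation made after its values were seen. Adam4 was at 12.5, 1.36 and 2.50 TPM in controls and at 4.37, 0.401 and 1.26 TPM in Gata2cKO libraries. Replicate 1 was the highest library of both groups, and the 95% interval of the log2 fold change ran from -2.51 to 0.70. Adam1a was at 12.9 TPM in control replicate 1, at 9.44 and 9.09 TPM in the other controls and at 8.49, 8.18 and 8.09 TPM in Gata2cKO libraries (log2 fold change -0.29, SE 0.13, limma adjusted p = 0.190). Of its 7508 exonic bases 4779 are shared with the gene model Gm42878 on the same strand, so its level is uncertain. Markers of testis cells summed to 35.3 to 46.4 TPM in controls and 31.1 to 40.4 TPM in Gata2cKO libraries, with 6 of 8 in the table. The germ cell markers Ddx4 and Dazl were under 1 TPM in all libraries.

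Among the 7 tested ADAMTS proteases that cut hyalectans such as versican, Adamts15 rose and none fell. That is 14.3% called, against 7.47% of all tested genes. Adamts15 was at 20.3, 25.7 and 26.1 TPM in controls and at 40.7, 49.9 and 39.2 TPM in Gata2cKO libraries. The lowest Gata2cKO value lay well above the highest control. The means were 24.0 ± 3.23 and 43.3 ± 5.79 TPM (SD, n = 3 per group), a 1.80-fold rise. On the log2 scale the change was 0.82 with an SE of 0.13 (adjusted p = 0.0169 by limma), the highest of the 43 tested members. It no longer passed when Gata2cKO replicate 1 (limma adjusted p = 0.0605) or Gata2cKO replicate 2 (0.0520) was left out. Adamts15 lies on chromosome 9 from 30899155 to 30922452, and Adamts8 lies 20.1 kb further on, on the opposite strand and with no protein-coding gene between. Adamts8 was at 5.57, 7.54 and 9.12 TPM in controls and at 5.46, 5.87 and 5.37 TPM in Gata2cKO libraries. Unlike Adamts15 its groups overlapped, through control replicate 1 (log2 fold change -0.34, SE 0.15, limma adjusted p = 0.205). Without control replicate 1 Adamts8 was called lower (limma adjusted p = 0.0254). Adamts15 was 3.65, 3.40 and 2.86 times Adamts8 in controls and 7.46, 8.51 and 7.31 times in Gata2cKO libraries.

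Adamts5 and Adamts4, the main aggrecanases of cartilage, lay higher in all Gata2cKO libraries without passing the test. Adamts5 was at 12.5, 11.8 and 10.9 TPM in controls and at 14.2, 16.3 and 14.9 TPM in Gata2cKO libraries (log2 fold change 0.34, SE 0.09, limma adjusted p = 0.0597). Adamts5 is called in the authors' deposited table, with an adjusted p of 0.0321. Adamts4 was at 10.6 to 12.2 TPM in controls and at 13.3, 19.8 and 12.8 TPM in Gata2cKO libraries, where replicate 2 stood out (limma adjusted p = 0.169). Adamts1, which neighbours Adamts5 on chromosome 16 at a distance of 53.1 kb and cuts versican, was the most abundant ADAMTS gene. It was at 199, 310 and 310 TPM in controls and at 238, 295 and 289 TPM in Gata2cKO libraries, with the lowest value in control replicate 1. Its log2 fold change of 0.03 (95% interval -0.39 to 0.45, limma adjusted p = 0.933) turned negative under median-of-ratios scaling (-0.03) and without control replicate 1 (-0.18). Adamts9 lay between 6.07 and 6.90 TPM in all libraries, and Adamts20, which met the filter only through the controls, did not pass, at 1.06 to 1.21 TPM in controls and 0.907 to 0.974 TPM in Gata2cKO libraries.

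The procollagen N-proteinases, which trim the amino-terminal end of fibrillar procollagens, did not pass the test. By limma none of the 2 tested passed at an unadjusted p under 0.05 either, and the authors' deposited table calls none of the 3. Adamts2 was at 7.09, 7.25 and 7.83 TPM in controls and at 6.95, 7.41 and 6.81 TPM in Gata2cKO libraries (log2 fold change -0.06, 95% interval -0.25 to 0.13, limma adjusted p = 0.690). Adamts14 was at 2.53 to 2.78 TPM in controls and at 2.61 to 3.39 TPM in Gata2cKO libraries (limma adjusted p = 0.567), and Adamts3 stayed under 1 TPM. Of their substrates, the 6 listed fibrillar procollagen genes, 2 rose and none fell, or 33.3% against 7.47% of all tested genes. Without overlap 3 of the 6 lay higher and 1 lower. The lower one was Col2a1, at 1.31 to 1.51 TPM in controls and 1.10 to 1.14 TPM in Gata2cKO libraries. Col5a2 was at 44.1, 51.1 and 48.7 TPM in controls and at 83.2, 79.4 and 86.7 TPM in Gata2cKO libraries and kept its call in all 6 removals (limma adjusted p = 0.00739). Col3a1 was at 1527, 1662 and 1628 TPM in controls and at 1977, 2208 and 2137 TPM in Gata2cKO libraries (limma adjusted p = 0.0414), a call that of the removals only the one of control replicate 1 kept. Col3a1 did not pass after median-of-ratios scaling (0.0678) or without the filter (0.0570).

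Of the remaining ADAMTS genes Adamts6 fell. Adamts6 encodes a protease that acts on microfibril proteins and is a close relative of Adamts10. It lies on chromosome 13 from 104287835 to 104496695. Adamts6 was at 2.32, 2.13 and 2.09 TPM in controls and at 1.39, 1.38 and 1.21 TPM in Gata2cKO libraries. The groups were well apart, with means of 2.18 ± 0.123 and 1.33 ± 0.104 TPM (SD, n = 3 per group), the latter 0.608 times the former. On the log2 scale the change was -0.45 with an SE of 0.09 (adjusted p = 0.0277 by limma, at most 0.102 over the removals). The authors' deposited table gives -0.78 with an adjusted p of 6.57e-09. Adamts10, a fibrillin-binding protein known from a connective tissue syndrome, was the second most abundant ADAMTS gene, at 95.2, 123 and 131 TPM in controls and at 80.8, 95.3 and 78.2 TPM in Gata2cKO libraries. Its groups overlapped narrowly, at control replicate 1 and Gata2cKO replicate 2 (log2 fold change -0.44, SE 0.14, limma adjusted p = 0.0860). Without control replicate 1 the adjusted p was 0.0149, and the authors' deposited table gives 0.000584. Adamts16, known from kidney and gonad, was at 7.04, 9.09 and 8.67 TPM in controls and at 5.18, 6.92 and 5.97 TPM in Gata2cKO libraries (limma adjusted p = 0.0958), where the lowest control lay just above the highest Gata2cKO value. Adamts7 had means of 18.6 TPM in controls and 15.3 TPM in Gata2cKO, with overlapping groups, and Adamts19 lay at 2.25 to 2.79 TPM in controls and 1.72 to 2.20 TPM in Gata2cKO libraries. All 5 tested genes of this group had a negative log2 fold change, from -0.45 to -0.22, and did so under each alternative setting run. Over all 12300 tested genes 4979 had a negative value. The group lists 8 genes, and 2 that the filter left out, Adamts12 and Adamts17, went the other way. Both lay higher in Gata2cKO without overlap and are called higher in the authors' deposited table.

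Among the 4 tested ADAMTS-like genes, which encode microfibril-associated proteins, none passed by limma. An unadjusted p under 0.05 was found for 2 with higher and 1 with lower values, and the authors' deposited table calls Adamtsl1 higher and Adamtsl2 lower. Adamtsl2 was at 2.65, 3.05 and 3.59 TPM in controls and at 1.37, 2.02 and 2.41 TPM in Gata2cKO libraries. The groups did not overlap (log2 fold change -0.49, SE 0.15, limma adjusted p = 0.0879). Adamtsl5, the most abundant, was at 43.0, 49.3 and 42.7 TPM in controls and at 52.5, 59.7 and 53.7 TPM in Gata2cKO libraries, also without overlap (log2 fold change 0.29, SE 0.09, limma adjusted p = 0.0938). Adamtsl1 lay at 1.64 to 2.06 TPM in controls and 2.14 to 3.38 TPM in Gata2cKO libraries. Adamtsl4 was highest in control replicate 1, at 16.1 TPM, and lay between 9.11 and 11.8 TPM in the other 5 libraries.

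The 10 members left out of the test by the filter on low values were Mmp8, Mmp16, Mmp25, Adam5, Adam22, Adamts3, Adamts12, Adamts17, Adamts18 and Adamtsl3. Adamts17 was at 0.392, 0.406 and 0.356 TPM in controls and at 0.626, 0.694 and 0.650 TPM in Gata2cKO libraries, and Adamts12 at 0.562, 0.425 and 0.490 TPM and at 0.716, 0.720 and 0.702 TPM. Neither overlapped between groups at these low levels. The authors' deposited table, which covers them, calls both higher, with adjusted p-values of 7.66e-05 for Adamts17 and 0.0193 for Adamts12.

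The authors' deposited table has 14 of the 53 members (26.4%) past the same threshold, 6 higher and 8 lower. Over its 14366 genes the share is 13.3%, of which 6.69% are higher and 6.58% lower. Of the 5 members called by limma it also calls 3, Adamts15, Timp2 and Adamts6, and it does not call Mmp7 and Mmp28. The 11 that it alone calls include 2 that were not tested by limma. In 9 of these 11 the groups did not overlap, against 33.9% of all tested genes. The 11 were picked by a p-value from the same libraries, so that count is no separate support for them.

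**Figure D4:**
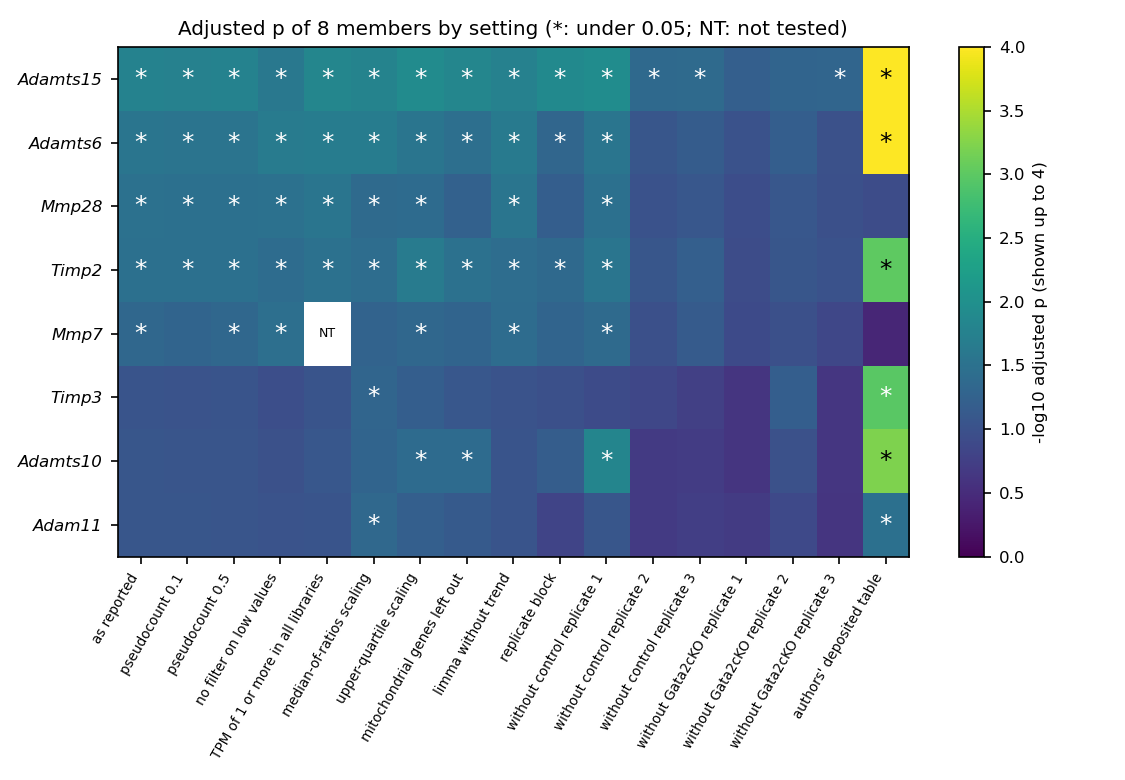
Adjusted p, as -log10, of 8 members (rows) under the reported fit, each alternative setting and the authors' deposited table (columns), with an asterisk where it is under 0.05. Removing any library but control replicate 1 ends the calls of Adamts6, Mmp28, Timp2 and Mmp7, and Timp3, Adamts10 and Adam11 pass in the authors' table.

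Genes that activate, restrain or supply substrates to these proteases were taken from 7 lists of 69 genes, of which 45 were tested. By limma 6 rose and 1 fell, or 15.6% against 7.47% of all tested genes. Leaving out 1 library gave 1 to 9 higher and 0 to 3 lower, with 1 higher and none lower without Gata2cKO replicate 1. Among activators and regulators, which include the furin-type convertases and the membrane inhibitor Reck, none of 15 passed. At an unadjusted p under 0.05, 4 of the 15 were higher and none lower, near the 27.4% of all tested genes, and the authors' deposited table calls 1 higher and 1 lower. Tspan17, a tetraspanin that accompanies ADAM10, came closest, at 3.24, 2.69 and 3.58 TPM in controls and at 4.58, 4.34 and 4.88 TPM in Gata2cKO libraries (limma adjusted p = 0.0510).

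In the plasminogen activator system, which feeds into MMP activation, Plau rose, while Serpine2 went the other way without passing the test. Serpine2 was at 37.4, 33.3 and 32.8 TPM in controls and at 28.1, 27.1 and 22.8 TPM in Gata2cKO libraries. Its groups did not overlap (limma adjusted p = 0.0588). The authors' deposited table calls Plau higher and Serpine2 lower. For Plat, Plaur, Plgrkt and Serpinf1 the groups overlapped. Plau, the urokinase gene, was at 20.5, 26.9 and 25.2 TPM in controls and at 40.4, 38.5 and 40.1 TPM in Gata2cKO libraries, without overlap (log2 fold change 0.70, SE 0.11, limma adjusted p = 0.0150). Plau lost its call without any 1 of the Gata2cKO libraries (limma adjusted p up to 0.0699).

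Of the 8 tested hyalectan matrix genes and cofactors, Vcan fell and none passed as higher, or 12.5% called against 7.47% of all tested genes. Without overlap 3 of the 8 lay higher and 3 lower, against 33.9% of all tested genes. Has1, among the lower, met the filter only through the controls, which fixed its lack of overlap. Fbln2 was at 27.3, 40.3 and 39.9 TPM in controls and at 53.4, 56.0 and 52.9 TPM in Gata2cKO libraries (limma adjusted p = 0.0506). The authors' deposited table calls 1 higher and 3 lower. Vcan encodes versican, the proteoglycan that several ADAMTS proteases cut, and was at 99.6, 79.1 and 79.9 TPM in controls and at 59.3, 54.3 and 45.3 TPM in Gata2cKO libraries (limma adjusted p = 0.0265; kept only without control replicate 1, with up to 0.0879 over the removals). Of the 4 tested shed membrane proteins L1cam, an adhesion molecule cut by ADAM10, rose from 2.11, 1.45 and 1.42 TPM to 3.93, 3.76 and 3.77 TPM (limma adjusted p = 0.0114; 0.0551 without Gata2cKO replicate 1). Papln, which encodes the ADAMTS relative papilin, rose from 9.66, 6.92 and 7.37 TPM to 11.9, 13.2 and 11.3 TPM (limma adjusted p = 0.0433; of the removals kept only without control replicate 1, up to 0.133). Papln did not pass after median-of-ratios (0.0515) or upper-quartile scaling (0.0607), without mitochondrial genes (0.0855) or without the filter (0.0589). Of the 3 tested astacin proteases and procollagen-processing genes none passed. Mep1a, a meprin subunit gene, had the smallest p of that list (limma adjusted p = 0.0884), 1 of the 3 was at an unadjusted p under 0.05, and the authors' deposited table calls 1 higher and 1 lower.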

How the data were processed

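In all, 6 RNA-seq libraries of mesonephros were compared, 3 control and 3 Gata2cKO. The submitters' processing notes list STAR 2.7.11a, DESeq2, DESeq and GRCm38 without saying what each did, and no source used here names the quantifier. The deposited values were taken to be TPM made by the authors, since each library sums to 997351 to 998844. The same deposited table holds the authors' log2 fold change, p-value and adjusted p.

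The 12300 genes that reached 1 TPM in 3 or more libraries were fitted with limma 3.58.1 in R 4.3.3 on log2(TPM + 1), with variances that follow the mean, 1 term for group and Benjamini-Hochberg adjustment (threshold 0.05, two-sided). The fit was tested on simulated data. TPM keeps no depth, so replicate spread is the error. Folds are ratios of mean TPM. Positions come from the mouse GENCODE release 21 annotation (GRCm38), in which 53 of 53 members were found.

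Members, lists and tests were chosen with earlier results of these data known. Named genes are the TIMPs, called members, the most abundant and smallest-p member of each of 12 subfamilies and, per partner list, up to 4 called genes or that with the smallest p. A partner gene that the rule names is not reported here. Other members are given as ranges or were chosen after their values were seen. Subfamilies follow textbook knowledge; ADAMs known from testis were kept apart, as their catalytic site was not checked. Alternatives changed the pseudocount, filter, scaling, variance model, replicate block and libraries.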

Additional observations from a re-analysis of the deposited data

How the results depend on the processing

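With 3 libraries a group and no read depth, low members are measured with little precision. All genes called numbered 116 to 1539 when 1 library was left out and 1906 in the authors' deposited table, against 919. Median-of-ratios scaling left 55.8% of calls higher, upper-quartile scaling 62.8% and leaving out mitochondrial genes 60.5%, against 76.7%.

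Members called higher numbered 2 without mitochondrial genes and 0 to 6 when 1 library was left out. Members called lower numbered 3 under median-of-ratios scaling and with the replicate block, 2 under upper-quartile scaling and without mitochondrial genes, 0 to 4 over the removals and 8 in the authors' table. Partner genes called higher numbered 1 to 9 over the removals. Those called lower numbered 2 without the filter and under upper-quartile scaling, 3 under median-of-ratios scaling, 0 to 3 over the removals and 7 in the authors' table. For counts of 0 lower members by limma, 5 to 8 were lower at an unadjusted p under 0.05, and for counts of 0 lower partner genes, 3 to 6. The cause was not tested.

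The log2 fold change of Adamts1 was -0.03 with median-of-ratios scaling, -0.01 with upper-quartile scaling, -0.03 without mitochondrial genes, -0.06 in the authors' table and -0.18 to 0.14 over the removals. Over the removals that of Mmp23 was -0.01 (without control replicate 1) to 0.28 and that of Adam15 -0.10 to 0.09, positive without control replicate 3 (0.03) and Gata2cKO replicate 1 (0.09).

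Deviations of same-numbered libraries correlated at 0.245, -0.0731 and 0.0384 across genes, and those of libraries with different numbers at -0.277 to 0.215. With 3 libraries a group these values cannot tell whether replicate numbers pair the libraries. With the replicate block 774 genes were called, and members called higher were Timp2, Mmp9 and Adamts15 (3) and lower were Adamts6, Adamtsl2 and Adam4. The blocked limma adjusted p was 0.0513 for Mmp7, 0.0628 for Mmp28, 0.0603 for Col3a1, 0.0467 for Mmp9 and 0.0420 for Adamtsl2. Of 307 values of named genes under the other alternatives 275 kept direction and side of the threshold, and of 186 over the removals 131 did.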
